A study of Homo sapiens with 6 samples.

Results

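The 36 genes described here belong to the integrated stress response and the unfolded protein response, and were chosen by name and role from the 58870 genes of the count table: the sensors, the transcription factor ATF4 and its partners, enzymes of amino acid and one-carbon synthesis, and chaperones of the endoplasmic reticulum (ER). The choice was made with earlier results of these data known. All 36 were found in the table and all 36 received an adjusted p, as did 19135 genes in all. They were measured by RNA sequencing in the human melanoma cell line WM164, an established line, in 3 libraries of cells overexpressing GFP and 3 libraries of cells carrying T-MGM, a fusion that tethers MITF, the melanocyte lineage factor, to the small MAF protein MAFG through a flexible linker. According to the study's methods, constructs of this kind were delivered by lentivirus, driven by the EF1α promoter and selected with blasticidin, with the cDNA of the melanocyte isoform of MITF placed ahead of that of MAFG. The labels do not state whether the 3 libraries of a group came from separate cultures, so p-values measure the spread between these libraries only, and a single cell line was used.

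The integrated stress response is set off by kinases that phosphorylate the translation factor eIF2α. General protein synthesis then falls while translation of the ATF4 mRNA rises, and ATF4 with its C/EBP partners switches on genes for amino acid synthesis and transport, tRNA charging and, under lasting stress, cell death. The unfolded protein response adds the ER sensors IRE1 and ATF6, which through spliced XBP1 mRNA and cleaved ATF6 protein raise chaperones and the machinery that removes misfolded proteins. Several of these steps act on phosphorylation, splicing or translation, which counts of reads per gene do not measure.

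Promoters of these genes are known for short elements read by the factors named above, and 5 stretches of 120 bases directly before the RefSeq transcription start (GRCh38.p14, in the direction of the gene) are shown because they carry such an element or belong to the member with the highest fold change. Capitals mark TGATGNAA, the core of the composite site of ATF4 and C/EBP proteins, in ASNS. In HSPA5, HSP90B1 and XBP1 they mark the letters of the ER stress element, CCAAT and CCACG set 9 bases apart, on either strand. Neither element was found in the PSAT1 window, where nothing is in capitals.
ASNS (chr7:97872409-97872528, minus strand): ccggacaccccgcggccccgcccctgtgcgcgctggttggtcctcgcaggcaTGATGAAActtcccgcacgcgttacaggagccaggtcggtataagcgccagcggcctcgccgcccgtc
HSPA5 (chr9:125241344-125241463, minus strand): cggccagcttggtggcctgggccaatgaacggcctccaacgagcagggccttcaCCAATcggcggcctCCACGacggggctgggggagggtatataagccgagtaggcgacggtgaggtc
HSP90B1 (chr12:103930290-103930409, plus strand): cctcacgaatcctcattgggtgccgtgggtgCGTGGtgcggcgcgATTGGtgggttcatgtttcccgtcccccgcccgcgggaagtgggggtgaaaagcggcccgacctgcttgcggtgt
XBP1 (chr22:28800570-28800689, minus strand): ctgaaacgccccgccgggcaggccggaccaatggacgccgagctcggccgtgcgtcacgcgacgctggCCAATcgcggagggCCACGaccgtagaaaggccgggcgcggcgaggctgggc
PSAT1 (chr9:78297005-78297124, plus strand): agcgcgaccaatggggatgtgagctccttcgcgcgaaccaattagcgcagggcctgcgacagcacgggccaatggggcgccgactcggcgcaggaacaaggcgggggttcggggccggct

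RefSeq windows, which reach from 250 bases before to 50 bases after the start, were at hand for 31 of the 36 members and for 27305 genes in all. TGATGNAA was present on either strand in 4 of the 31 members (ASNS, CEBPG, CHAC1 and HERPUD1) and in 4.46% of all genes. The ER stress element was present in 4 of the 31 (CALR, HSP90B1, HSPA5 and XBP1), and in 0.0916% of all genes, which is 25 genes. Members were chosen by role in these pathways, so an excess of pathway elements was largely set in advance. The unfolded protein response element TGACGTGG was present in ALDH18A1 alone among the members and in 0.927% of all genes. Of the letters associated with the construct, the small MAF element TGACNNNGC was present in 8 of the 31 members against 16.1% of all genes. The E-box CACGTG was present in 5 of the 31 against 8.77%, and the M-box TCATGTG in 0 of the 31 against 3.59%. These matches describe the sequence and do not show that a factor was bound.

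Among the members, 23 passed at an DESeq2 adjusted p of 0.05 in DESeq2, 14 of them higher and 9 lower in T-MGM, and 13 did not pass. Over all genes tested 19.2% passed as higher and 19.2% as lower. Since most members are abundant, the nearer comparison is with the 11652 genes that had a mean normalized count of at least 100. Of these 56.3% passed, 27.0% as higher and 29.3% as lower. Of the 35 members at that level 40.0% were higher and 25.7% lower. The levels are still not matched, since many members lie far above that floor. The share that passed was larger there than over all genes tested (38.4%). The median log2 fold change (T-MGM over GFP) was 0.06 for the members and -0.003 for all genes tested. Only PSAT1 also exceeded 2-fold, a call met by 4.63% of all genes tested. The ranges of the GFP and T-MGM libraries were separate, in normalized counts, for 27 members (75.0%), in 46.8% of all genes tested and in 62.7% of genes with a mean of at least 100. Differences in RNA per cell and in the share of cells that use a gene cannot be told apart in these bulk libraries.

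The direction of small differences depended on scaling. Under scaling by total counts, where the median gene lay at -0.06, 11 members were higher and 11 lower. Over all genes 7561 of 19735 tested passed under that scaling, and 5514 of 13674 in limma on log2(TPM + 1). These totals were not split by direction, so the member counts of these fits have no share beside them. In limma on log2(TPM + 1), where the median of all genes lay at -0.13, 5 were higher (ATF4, NUPR1, PSAT1, PHGDH and EIF2S1) and 11 lower, which were the 9 lower by DESeq2 with EIF2AK4 and HSPA5. Measured from that median, all 14 members that were higher by DESeq2 lay above it and all 9 that were lower lay below it. These members were selected by direction in counts of the same libraries, so this agreement was largely set in advance. Only 4 of the 14 passed as higher in that fit. The calls for ATF4 and PSAT1 as higher and for DDIT3, CEBPB, TRIB3, CTH, DNAJC3 and PDIA4 as lower were kept in all 17 alternatives.

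**Figure D1:**
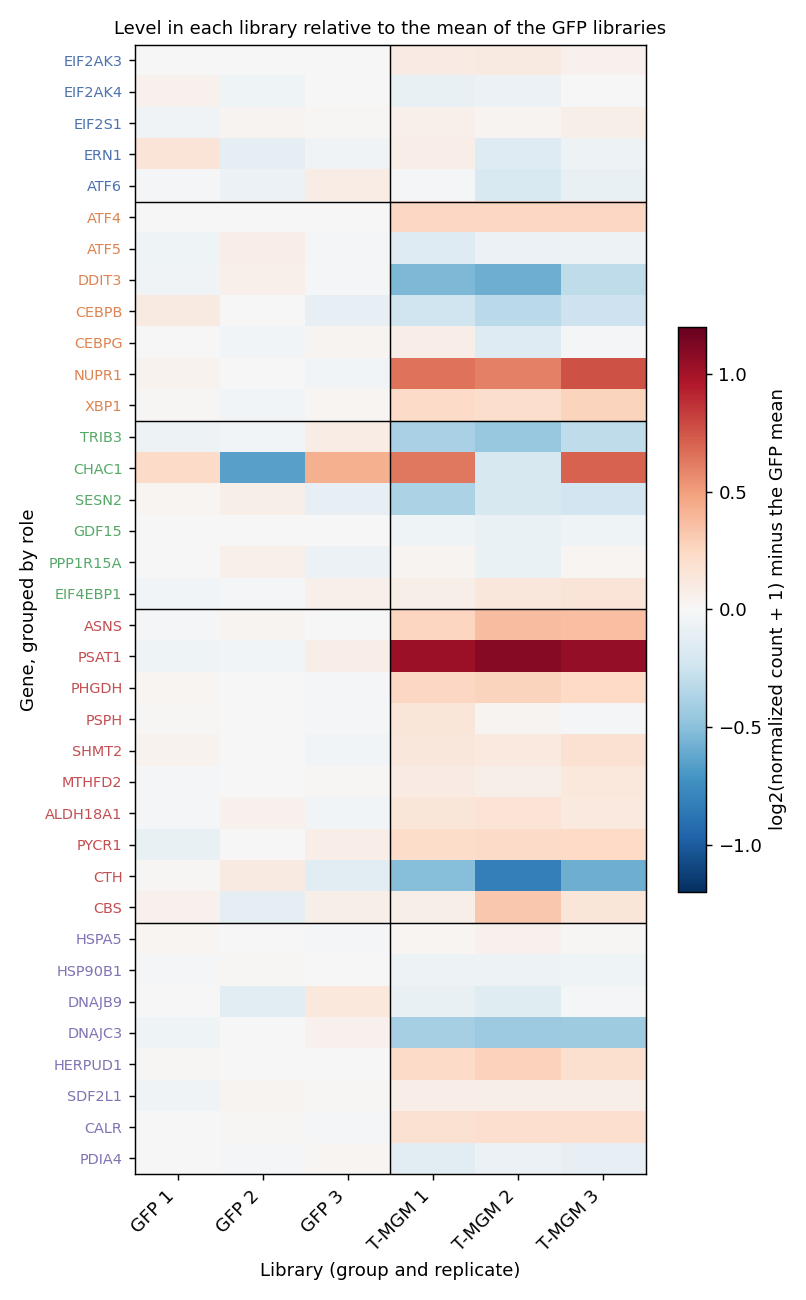
Each row is 1 of the 36 members, grouped by role from top to bottom (sensors and eIF2, transcription factors, feedback and stress effectors, amino acid and one-carbon synthesis, ER chaperones and folding), and each column is 1 library. The colour gives log2(normalized count + 1) minus the mean of the 3 GFP libraries, so that red is above and blue below that mean; PSAT1 and NUPR1 are the reddest rows in all 3 T-MGM libraries, and DDIT3, TRIB3, CTH and DNAJC3 are blue in all 3.

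A few facts of the libraries bear on these values. The GFP libraries held 35057239 to 38738065 counts in total and those of T-MGM 44577774 to 59250663. Mitochondrial genes took 10.7 to 10.9% of counts in GFP and 11.7 to 12.0% in T-MGM. The transcripts of MITF and MAFG differed too little between the groups to check the labels from which all directions are taken. Melanocyte lineage markers were abundant in every library (8 genes, summed TPM 1144 to 1168 in GFP and 972 to 1009 in T-MGM). Among them TYRP1 was at or near 0. In normalized counts 3 of the 7 tested were higher, by 1.04- to 1.08-fold, and 4 lower, including DCT at 0.18-fold and MLANA at 0.63-fold. Those 3, MITF, SOX10 and PMEL, had lower mean TPM in T-MGM (133, 403 and 237) than in GFP (138, 416 and 252). The 5 fibroblast markers summed to 3.81 to 4.83 TPM in GFP and 5.34 to 6.69 in T-MGM, with COL3A1 at or near 0 and 3 of the 4 tested higher. Keratinocyte markers summed to 20.4 to 21.9 against 19.6 to 21.3 TPM, which came from KRT10 while KRT5, KRT14, KRT1 and TP63 were at or near 0, and endothelial markers summed to 0.22 to 0.36 against 0.18 to 0.28 TPM. Of the immune cell markers PTPRC and CD3E were at or near 0, and LYZ had 87.5, 62.8 and 65.1 normalized counts in GFP and 37.4, 19.5 and 28.8 in T-MGM, a fall to 0.40-fold (DESeq2 adjusted p of 7.83e-05). The part of these shifts in the values below was not tested.

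None of the 5 genes at the head of the pathways passed in DESeq2 as reported. EIF2AK3, which encodes the ER-resident eIF2α kinase PERK, had 1594, 1594 and 1593 normalized counts in GFP and 1711, 1712 and 1647 in T-MGM, a log2 fold change of 0.08 (95% limits -0.01 to 0.17; DESeq2 adjusted p of 0.15). Its groups did not overlap, but the difference was within the spread that DESeq2 estimates for genes of this level. EIF2S1, which encodes eIF2α itself, had 4741, 4968 and 4901 against 5087, 4994 and 5124 normalized counts, likewise without overlap (log2 0.06, DESeq2 adjusted p of 0.0885). The groups overlapped for the amino acid sensor kinase GCN2 (EIF2AK4, log2 -0.05), for IRE1 (ERN1, log2 -0.04) and for ATF6 (log2 -0.10, DESeq2 adjusted p of 0.0995). The 95% limits of all 5 lay between -0.22 and 0.17 on the log2 scale.

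After correction for GC content and transcript length EIF2AK3 and EIF2S1 passed as higher, at 0.17 and 0.20 on the log2 scale. Under total-count scaling EIF2AK4 and ATF6 passed as lower, at -0.11 and -0.15, and ATF6 also passed without GFP replicate 2 (-0.13) or without T-MGM replicate 1 (-0.13). Fold changes rose with the GC content of the transcript across 12613 genes (Spearman's rho 0.38, a description across genes, which are not independent). EIF2S1 was at 38.3% GC and EIF2AK3 at 42.5%.

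Of the 7 transcription factors 3 rose, 2 fell and 2 did not pass. ATF4 (ENSG00000128272.14; chromosome 22, 39519695 to 39522683, GRCh38, plus strand), the central factor of the integrated stress response, had 11101, 11108 and 11148 normalized counts in GFP and 13236, 13191 and 13221 in T-MGM. The groups did not overlap. Their SDs of 25.5 and 23.2 normalized counts come from only 3 libraries each and are no safe measure of the spread. ATF4 rose 1.19-fold (95% limits 1.16 to 1.22, log2 0.25, SE 0.02, DESeq2 adjusted p of 3.3e-43). In TPM it stood at 173 ± 1.27 in GFP and 185 ± 2.35 in T-MGM (SD, n = 3 each), the most abundant factor of the group per length and at rank 3 among all 36 members. Other genes within 10 Mb of ATF4 had a median log2 fold change of 0.12.

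NUPR1, a small stress-induced chromatin protein, showed the highest fold change among the factors. It had 747, 724 and 709 normalized counts in GFP and 1146, 1108 and 1234 in T-MGM, a 1.60-fold rise (log2 0.68, SE 0.07; DESeq2 adjusted p of 5.31e-24). The counts of the groups were well separated. On the TPM scale the GFP libraries gave 7.58, 9.81 and 7.31 and the T-MGM libraries 14.9, 9.75 and 11.9, so the second library of T-MGM fell below the second of GFP on that scale. The annotation places another gene on the same strand over NUPR1.

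XBP1, the factor that IRE1 activates by splicing, had 7506, 7242 and 7537 normalized counts in GFP and 8713, 8583 and 8965 in T-MGM. It rose 1.18-fold without overlap (log2 0.24, SE 0.02; DESeq2 adjusted p of 2.84e-22). Gene counts do not separate its spliced and unspliced forms. In limma on log2(TPM + 1) XBP1 was at 0.07 and did not pass.

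DDIT3 (ENSG00000175197.12; chromosome 12, 57516588 to 57521737, minus strand), which encodes CHOP, the factor tied to cell death under lasting stress, moved in the opposite direction to ATF4. It had 718, 772 and 736 normalized counts in GFP and 510, 493 and 601 in T-MGM. All T-MGM libraries lay below all GFP libraries, and DDIT3 fell to 0.72-fold (95% limits 0.64 to 0.81; log2 -0.47, SE 0.08; DESeq2 adjusted p of 1.89e-07). DDIT3 overlaps MARS1 on the opposite strand, and whether the counting used strand is uncertain; MARS1, named for this overlap after its value was seen, was higher, at 0.15 on the log2 scale. The other genes within 10 Mb of DDIT3 had a median of 0.05.

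CEBPB, a C/EBP factor that pairs with ATF4, had 2385, 2210 and 2066 normalized counts in GFP and 1874, 1768 and 1862 in T-MGM. It fell to 0.83-fold without overlap (log2 -0.27, SE 0.05; DESeq2 adjusted p of 1.08e-07). Its neighbours within 10 Mb had a median of -0.12. Its partner CEBPG was at -0.03 (DESeq2 adjusted p of 0.851) with overlapping groups. ATF5, a relative of ATF4 that is also controlled through translation, was at -0.10 (DESeq2 adjusted p of 0.259) without overlap. It passed as lower in 2 of the 17 alternatives, at log2 values from -0.23 to -0.06 over all 17.

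**Figure D2:**
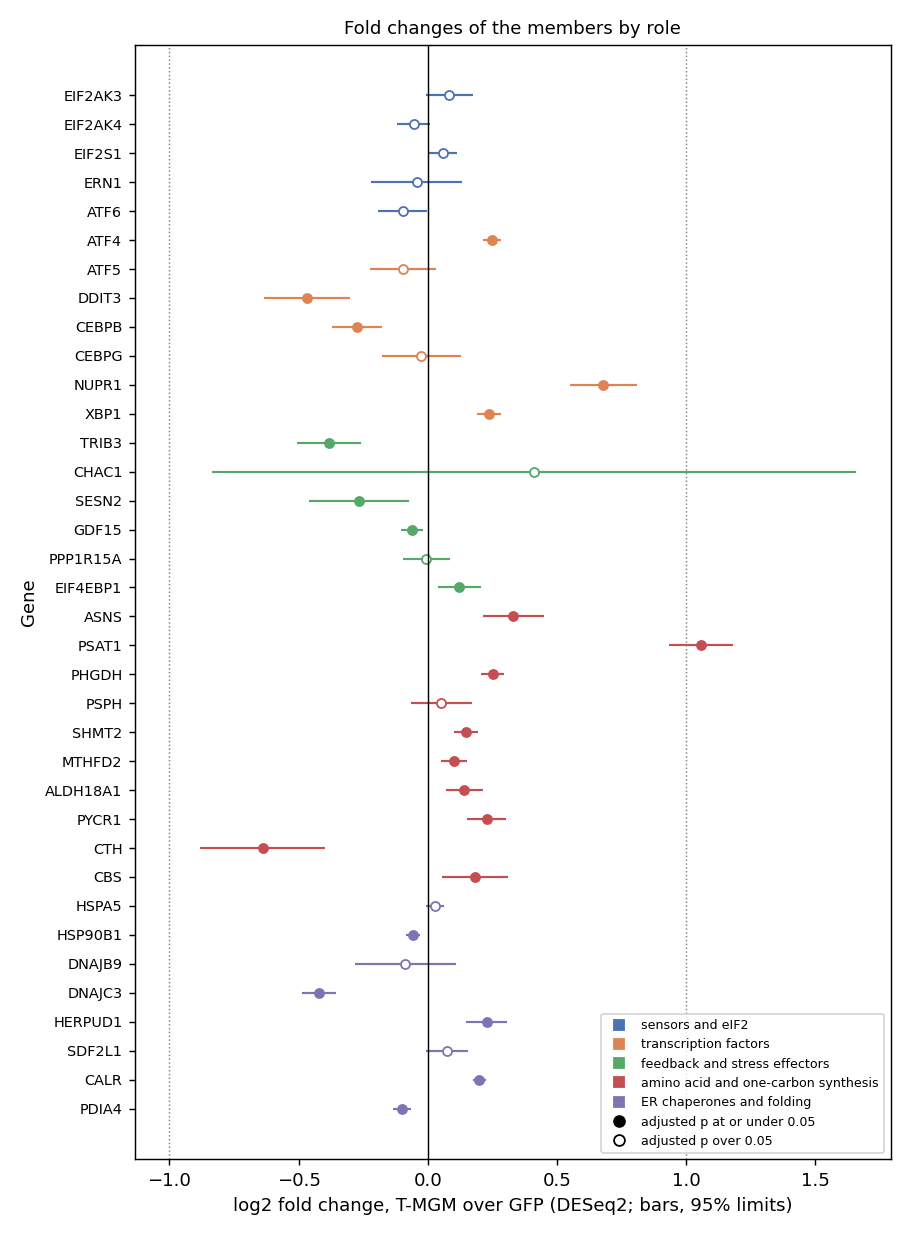
Log2 fold change (T-MGM over GFP, horizontal axis) of each of the 36 members with its 95% limits from DESeq2, coloured by role; filled points passed at an DESeq2 adjusted p of 0.05, open points did not, and dotted lines mark 2-fold. PSAT1 at 1.06 is the only point that passed beyond 2-fold, the sensors and eIF2 all have open points, and CHAC1 has the widest limits.

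Among the 6 feedback and stress effectors 1 rose and 3 fell. TRIB3, a pseudokinase induced by ATF4 and CHOP that restrains both, had 1119, 1141 and 1236 normalized counts in GFP and 887, 848 and 945 in T-MGM, and it fell to 0.77-fold (log2 -0.38, SE 0.06; DESeq2 adjusted p of 1.19e-08). The groups did not overlap, and the neighbours of TRIB3 had a median of -0.10. SESN2, a leucine sensor that holds back mTORC1, had 457, 471 and 420 against 346, 393 and 382 normalized counts and also fell (log2 -0.27, DESeq2 adjusted p of 0.0195); its call was lost without GFP replicate 1 (-0.25), without GFP replicate 2 (-0.23) and without T-MGM replicate 1 (-0.21).

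GDF15, a secreted stress cytokine, was the most abundant of these effectors per length, at 152 ± 0.68 TPM in GFP and 131 ± 1.10 in T-MGM (SD, n = 3 each). In normalized counts it fell by 0.06 on the log2 scale, to 0.96-fold (DESeq2 adjusted p of 0.0149), and that call was lost without GFP replicate 1, GFP replicate 3 or T-MGM replicate 2 in turn (-0.05 to -0.06). EIF4EBP1, a repressor of cap-dependent translation, rose to 1.09-fold (log2 0.12, DESeq2 adjusted p of 0.0131). That call was lost without any of GFP replicates 1 and 2 and T-MGM replicates 2 and 3 (0.10 to 0.12), and the direction turned after correction for GC content and length (-0.08) and in limma on log2(TPM + 1) (-0.03).

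PPP1R15A, which encodes the phosphatase subunit GADD34 that ends the response by removing the phosphate from eIF2α, did not pass and its groups overlapped: 1931, 1999 and 1832 normalized counts in GFP and 1965, 1822 and 1950 in T-MGM, with 95% limits of 0.94- to 1.06-fold. CHAC1, a glutathione-degrading enzyme that is strongly induced when ATF4 is active, was scarcely detected. It had 10.8, 5.41 and 12.6 normalized counts in GFP and 14.6, 7.81 and 15.5 in T-MGM, with overlapping groups and limits of 0.56- to 3.16-fold, so that a moderate change was not detectable at this depth.

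The 10 enzymes of amino acid and one-carbon synthesis were the group in which most members rose: 8 rose, 1 fell and PSPH did not pass, with a median log2 fold change of 0.17, where 27.0% of genes averaging 100 or more normalized counts were higher. In limma on log2(TPM + 1) only PSAT1 and PHGDH kept the call, and MTHFD2 had the opposite sign. PSAT1 (ENSG00000135069.14; chromosome 9, 78297125 to 78330093, plus strand), the aminotransferase of the serine pathway, had 609, 618 and 668 normalized counts in GFP and 1291, 1345 and 1311 in T-MGM. The groups were widely separated, and PSAT1 rose 2.08-fold (95% limits 1.91 to 2.27; log2 1.06, SE 0.06; DESeq2 adjusted p of 3.3e-60). Its TPM was 6.10 ± 0.32 in GFP and 11.5 ± 0.31 in T-MGM (SD, n = 3 each), and in limma on log2(TPM + 1) its fold change was 0.82, under 2-fold but 0.95 above the median gene. The other 46 genes measured within 10 Mb of PSAT1 had a median log2 fold change of -0.15, so it moved against its chromosomal surroundings.

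The enzymes before and after PSAT1 in the pathway changed less. PHGDH, which commits glycolytic carbon to serine, had 6429, 6300 and 6258 normalized counts in GFP and 7514, 7634 and 7450 in T-MGM, a 1.19-fold rise without overlap (DESeq2 adjusted p of 1.64e-25). PSPH, the phosphatase that completes serine, had 1100, 1095 and 1075 against 1208, 1112 and 1075 normalized counts, and the groups overlapped (log2 0.05, 95% limits -0.06 to 0.17). Per length PHGDH (71.6 TPM in GFP) was well above PSPH (17.3) and PSAT1 (6.10), and in T-MGM the order was the same with PSAT1 at 11.5 TPM.

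Downstream of serine, SHMT2, which passes its carbon to folate in mitochondria, rose 1.11-fold (8289, 8008 and 7886 against 8863, 8761 and 9156 normalized counts; DESeq2 adjusted p of 4.16e-09), and MTHFD2, the next mitochondrial folate enzyme, rose 1.07-fold (5387, 5414 and 5504 against 5818, 5708 and 5950; DESeq2 adjusted p of 0.000448). Neither overlapped between groups in counts, but both did in TPM. SHMT2 lost its call after correction for GC content and length, at 0.05 on the log2 scale, and MTHFD2 in limma on log2(TPM + 1) was at -0.05, which is above the median gene on that scale.

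ASNS, asparagine synthetase and a textbook ATF4 target, had 905, 945 and 918 normalized counts in GFP and 1106, 1191 and 1186 in T-MGM. It rose 1.26-fold without overlap (log2 0.33, SE 0.06; DESeq2 adjusted p of 2.08e-07), while its neighbours had a median of -0.08. The proline enzymes rose as well in counts, ALDH18A1 1.10-fold (DESeq2 adjusted p of 0.000299) and PYCR1 1.17-fold (DESeq2 adjusted p of 4.34e-08). PYCR1, which overlaps MYADML2 on the same strand, lost its call after correction for GC content and length, at 0.08. In limma on log2(TPM + 1) ASNS was at 0.16, ALDH18A1 at 0.01 and PYCR1 at 0.07, and none of these 3 passed.

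Of the enzymes of transsulfuration, which make cysteine from homocysteine, CTH fell in every setting, whereas the call of CBS as higher held in 8 of 17 alternatives. CBS, which opens the pathway, had 1258, 1123 and 1276 normalized counts in GFP and 1282, 1522 and 1350 in T-MGM and rose 1.14-fold (DESeq2 adjusted p of 0.0141); the highest GFP and the lowest T-MGM library nearly met. Its call was lost without GFP replicate 2 (0.13) and without T-MGM replicate 2 (0.11), under total-count scaling (0.13), after correction for GC content and length (0.07) and in limma on log2(TPM + 1) (0.03). CBS has a near-identical copy, CBSL, with 13 to 85 raw counts in GFP and 28 to 271 in T-MGM, so its share of reads is uncertain; with the counts of both copies summed the log2 fold change was 0.25 (DESeq2 adjusted p of 6.26e-05).

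CTH (ENSG00000116761.11; chromosome 1, 70411218 to 70439851, plus strand), the enzyme that releases cysteine, had 343, 366 and 312 normalized counts in GFP and 237, 191 and 227 in T-MGM. It fell to 0.64-fold without overlap (95% limits 0.54 to 0.76; log2 -0.64, SE 0.12; DESeq2 adjusted p of 1.38e-06), the most negative fold change of the 36 members. The other 50 genes measured within 10 Mb of CTH had a median of -0.22.

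**Figure D3:**
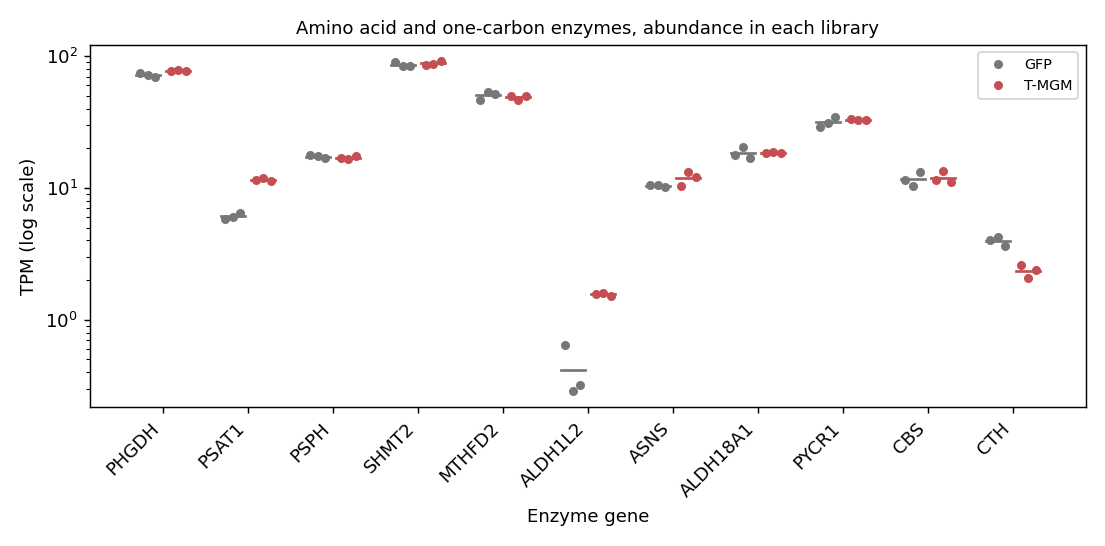
TPM on a log scale for 11 enzyme genes in each of the 3 GFP (grey) and 3 T-MGM (red) libraries, with a line at each group mean; ALDH1L2 belongs to the wider list described below and the other 10 are members. PSAT1 and ALDH1L2 were higher and CTH lower in every T-MGM library than in any GFP library, while TPM of the groups overlapped for PSPH, SHMT2, MTHFD2, ASNS, ALDH18A1, PYCR1 and CBS.

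Of the 8 ER chaperones and folding factors 2 rose, 3 fell and 3 did not pass. HSPA5, which encodes BiP, the chaperone most used as a readout of ER stress, had 20424, 20085 and 19684 normalized counts in GFP and 20346, 20800 and 20242 in T-MGM. The groups overlapped in counts and the 95% limits were 0.996- to 1.04-fold. HSPA5 passed in 6 of the 17 alternatives, 3 of them as higher and the others as lower, at log2 values from -0.12 to 0.08. In TPM its groups were separate, at 102 to 105 in GFP and 93.3 to 98.3 in T-MGM. In limma on log2(TPM + 1) it was lower, at -0.12, where the median gene lay at -0.13. HSP90B1, the ER form of HSP90 (GRP94), had 34313, 35043 and 34952 against 33345, 33301 and 33566 normalized counts and fell to 0.96-fold without overlap (DESeq2 adjusted p of 7.64e-05); this direction turned after correction for GC content and length, where HSP90B1 was higher by 0.07 (DESeq2 adjusted p of 1.8e-06).

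CALR, the lectin chaperone calreticulin, had 38439, 38855 and 38104 normalized counts in GFP and 43801, 44372 and 44366 in T-MGM and rose 1.15-fold (log2 0.20, SE 0.01; DESeq2 adjusted p of 9.37e-52). It was the most abundant member per length, at 473 ± 8.76 TPM in GFP and 486 ± 6.59 in T-MGM, where the groups overlapped. In limma on log2(TPM + 1) CALR (0.04) and HERPUD1 (0.12) did not pass. HERPUD1, an adaptor of ER-associated degradation, rose 1.17-fold (2051, 2020 and 2026 against 2378, 2458 and 2316 normalized counts; DESeq2 adjusted p of 9.97e-08). PDIA4, a protein disulfide isomerase, fell to 0.93-fold (17569, 17416 and 17973 against 16156, 16834 and 16459; DESeq2 adjusted p of 4.52e-07).

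DNAJC3 (ENSG00000102580.15; chromosome 13, 95677139 to 95794988, plus strand), the BiP co-chaperone p58IPK, which also restrains PERK, showed the clearest fall among the chaperones. It had 3749, 3897 and 4047 normalized counts in GFP and 2950, 2885 and 2898 in T-MGM, a fall to 0.75-fold without overlap (95% limits 0.71 to 0.78; log2 -0.42, SE 0.03; DESeq2 adjusted p of 1.26e-33). The other 30 genes measured within 10 Mb had a median of -0.31, so DNAJC3 lay 0.11 below its surroundings. SDF2L1, part of an ER chaperone complex, was at 0.07 (DESeq2 adjusted p of 0.16) but passed as lower after correction for GC content and length (-0.14), and DNAJB9, a co-chaperone induced through XBP1, at -0.09 (DESeq2 adjusted p of 0.561) with overlapping groups. The 4 members whose windows held an ER stress element split in direction: CALR and XBP1 rose, HSP90B1 fell and HSPA5 did not pass.

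**Figure D4:**
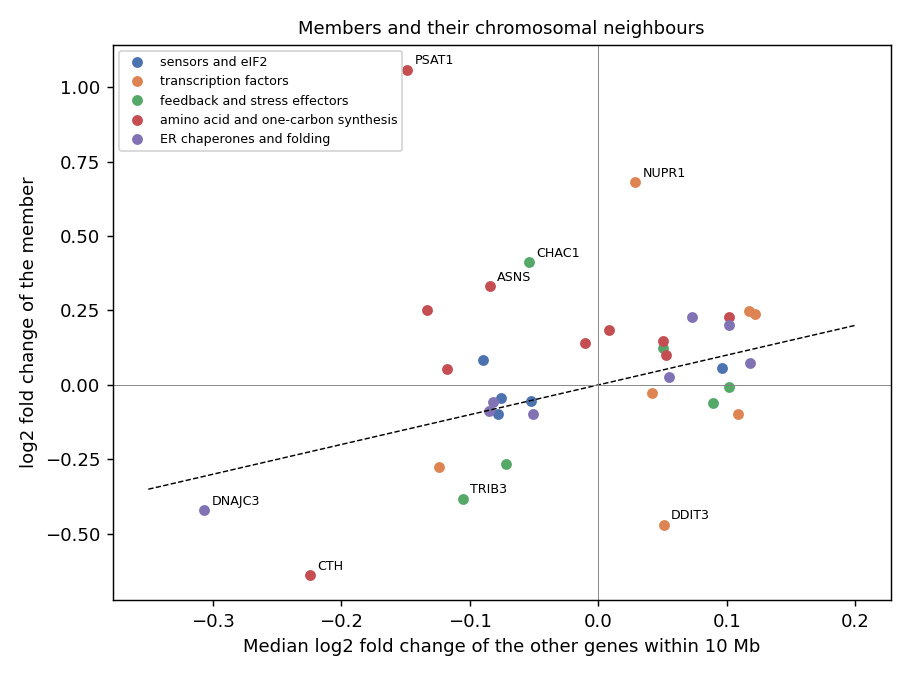
Log2 fold change of each member (vertical axis) against the median log2 fold change of the other genes within 10 Mb that had a mean normalized count of at least 50 (horizontal axis); the dashed line marks equal values and colours mark roles. DNAJC3 and CTH lie where the surrounding genes were also lower, whereas PSAT1, NUPR1 and DDIT3 lie far from the values of their surroundings.

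All 14 members that rose lay above the median of their chromosomal neighbours. Of the 9 that fell, 8 lay below it, HSP90B1 being the exception. These members were selected by direction in the same data, and their neighbour medians lay between -0.31 and 0.12. The tally was therefore largely set in advance and does not separate the members from their regions. Among the members that rose, neighbours were also higher at ATF4 (0.12 against 0.25), XBP1 (0.12 against 0.24), CALR (0.10 against 0.20) and PYCR1 (0.10 against 0.23). Smaller positive medians lay beside HERPUD1 (0.07 against 0.23), MTHFD2 (0.05 against 0.10), SHMT2 (0.05 against 0.15), EIF4EBP1 (0.05 against 0.12), NUPR1 (0.03 against 0.68) and CBS (0.009 against 0.18). Neighbours of PSAT1, PHGDH and ASNS were lower, at -0.15, -0.13 and -0.08, and those of ALDH18A1 were at -0.01. Whether a regional shift took part in the fold changes of DNAJC3, CTH or any other member was not tested.

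Other genes of the same pathways were counted on lists chosen by role, with earlier results of these data known. Of 20 cytosolic aminoacyl-tRNA synthetases, which charge tRNAs and are known ATF4 targets in part, 10 were higher and 5 lower, beside 27.0% and 29.3% of genes averaging 100 or more normalized counts. The balance was 8 higher and 8 lower under total-count scaling and turned to 3 higher and 9 lower in limma on log2(TPM + 1). Genes in general also lay lower in these 2 fits (median -0.06 and -0.13), so the turn is not a result about this list. The count of lower ones was 3 without GFP replicate 1, without GFP replicate 2 or without T-MGM replicate 3. The highest fold changes among those that passed were at AARS1 (log2 0.31), WARS1 (0.29) and QARS1 (0.27), for alanine, tryptophan and glutamine, and the most negative at FARSB (-0.40), NARS1 (-0.34) and EPRS1 (-0.10), for phenylalanine, asparagine, and glutamate and proline. Neighbours within 10 Mb had a median of -0.30 at NARS1 and 0.29 at QARS1, close to the values of these genes.

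Of 40 further genes of the integrated stress response 37 were tested, of which 18 (48.6%) were higher and 9 (24.3%) lower, beside the same 27.0% and 29.3%. Under total-count scaling 16 were higher and 12 lower, and in limma on log2(TPM + 1) the balance turned to 6 higher and 15 lower. The median gene lay at -0.06 and -0.13 in these 2 fits, and this turn too is not read as a result about the list. ALDH1L2, a mitochondrial folate enzyme downstream of serine, had 97.1, 92.0 and 115 normalized counts in GFP and 523, 474 and 444 in T-MGM, a 4.73-fold rise (log2 2.24, SE 0.14; DESeq2 adjusted p of 2.85e-58). JDP2, a repressor related to ATF3, rose by 0.79 on the log2 scale. SLC7A5, the large neutral amino acid transporter, had 15234, 15325 and 14966 normalized counts in GFP and 24828, 25281 and 24974 in T-MGM and rose 1.65-fold (log2 0.72, SE 0.02).

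The transcript of SLC7A11, the cystine and glutamate exchanger and a target of ATF4 and NRF2, had 3455, 3573 and 3591 normalized counts in GFP and 2034, 2144 and 2166 in T-MGM and fell to 0.60-fold (log2 -0.74, SE 0.04), in the same direction as CTH. GADD45A, a DNA damage and stress gene, and EIF2B5, a subunit of the exchange factor that eIF2 requires, fell by 0.33 and 0.24 on the log2 scale. The other gene of this list past 2-fold was SLC6A9, a glycine transporter at the lower mean of 96.5 normalized counts (log2 2.32), named after its value was seen.

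Of 46 further genes of ER folding, translocation and degradation 45 were tested, of which 20 (44.4%) were higher and 11 (24.4%) lower, beside 27.0% and 29.3% of genes averaging 100 or more normalized counts. The balance depended on scaling, with 15 higher and 14 lower under total-count scaling and 3 higher and 20 lower in limma on log2(TPM + 1). With the median gene at -0.06 and -0.13 in these 2 fits, the turn is again not a result about the list. ATF6B, a relative of ATF6, rose by 0.35, the prolyl isomerase PPIB by 0.33 and the mannosidase-like EDEM1 by 0.31 on the log2 scale. ERO1B, an oxidase that drives disulfide formation, had 478, 456 and 429 normalized counts in GFP and 188, 205 and 227 in T-MGM and fell to 0.46-fold (log2 -1.13, SE 0.11). The signal peptidase subunit SEC11C fell by 0.32 and SRP19 of the signal recognition particle by 0.30. The remaining genes past 2-fold, DERL3 (log2 1.72) and CREB3L1 (log2 1.73), were scarce, with a mean of 46.5 normalized counts at DERL3 and 4.33 to 9.14 in the GFP libraries at CREB3L1, and were named after their values were seen.

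**Figure D5:**
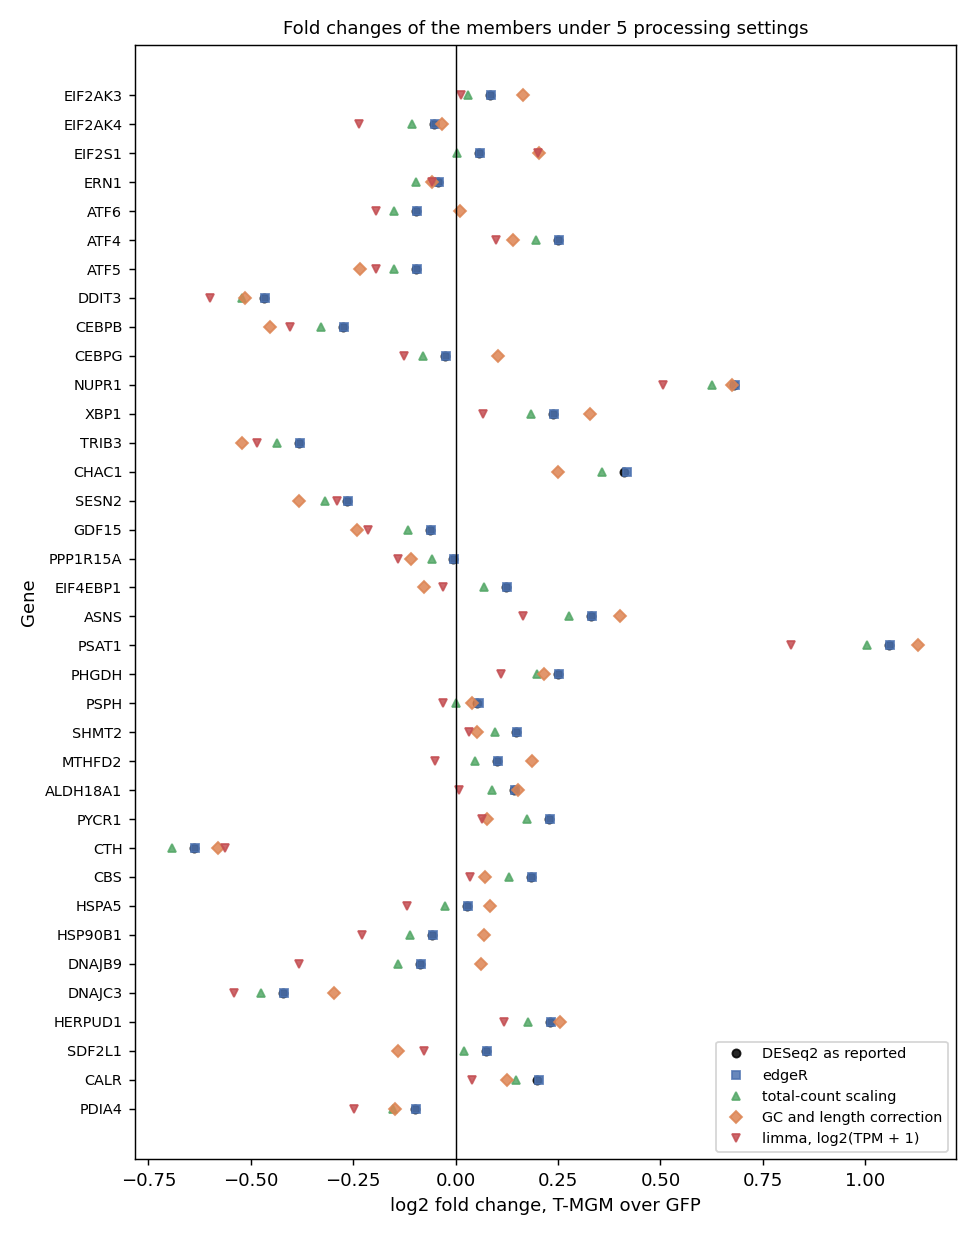
Log2 fold change of each member under 5 settings: DESeq2 as reported, edgeR, total-count scaling in DESeq2, correction for GC content and length, and limma on log2(TPM + 1). The points of PSAT1 and NUPR1 stay to the right of 0 and those of DDIT3, CEBPB, TRIB3, CTH and DNAJC3 to the left in all 5, while those of HSP90B1, EIF4EBP1 and SDF2L1 fall on both sides.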

How the data were processed

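RNA sequencing libraries of WM164 cells (3 GFP, 3 T-MGM) were grouped by their titles. Trimming was done by the authors with cutadapt, alignment to GRCh38 with STAR and counting of unique alignments over genes with featureCounts, and the deposited counts are raw whole numbers; the authors also deposited TPM values from RSEM, scaled for transcript length and depth. The submitters' processing notes name cutadapt 1.8.1, STAR 2.7.7a and RSEM 1.3.0; the annotation release is not given in the sources used here. The labels name a library kit without strand information and the methods a strand-specific one, so counts of overlapping genes are uncertain. Besides DDIT3 and ALDH1L2 such genes include SHMT2, MTHFD2, HSP90B1 and SLC6A9, each with a gene on the opposite strand.

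Counts were compared with DESeq2 1.42.0 in R 4.3.3 (group as the only term, 2-sided Wald test, no shrinkage, Benjamini-Hochberg adjustment over all genes tested); a gene passed at an adjusted p at or under 0.05. Limits are 95%. Alternatives comprised the quasi-likelihood test of edgeR 4.0.16, TMM or total-count scaling, a floor of 10 counts in 3 or more libraries, independent filtering switched off, a block for the replicate number, each library left out in turn, per-library lowess offsets for GC content and length, and limma 3.58.1 with trend on log2 of TPM plus 1 or 0.1, with and without a TPM minimum of 0.5 in at least 3 libraries. The summed counts of CBS and CBSL, the medians of neighbours and the counts of shared calls were added after the data were seen. The steps were tested on simulated data. Chi-square per degree of freedom between libraries of a group was 2.86 to 5.57, so no library was a copy of another.

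Members and lists were chosen with earlier results of these data known. All 36 members are named; of each wider list, up to 3 higher and up to 3 lower genes are named, those of greatest fold change that passed and averaged 100 or more normalized counts, and any other gene is said to have been chosen afterwards. A marker gene, and the sum of the list that holds it, are not reported here. Positions and overlaps are from GENCODE 44 (GRCh38), which holds 99.4% of the gene identifiers. Totals were 35057239 to 59250663 counts per library; the limits come from the SE of DESeq2 and so hold both counting error and the spread between libraries.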

Additional observations from a re-analysis of the deposited data

How the results depend on the processing

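Under the alternatives on counts (edgeR, TMM factors, total-count scaling, a minimum of 10 counts, no independent filtering, correction for GC content and length), 11 to 16 members were higher and 8 to 11 lower. With each library left out in turn 12 to 14 were higher and 7 to 9 lower. In limma on log2(TPM + 1), log2(TPM + 0.1) and log2(TPM + 1) without a filter, 5, 5 and 3 members were higher, of which 4, 4 and 2 were among the 14 above, and 0 passed 2-fold; the median gene lay at -0.13, -0.15 and -0.13 in these fits. The tRNA synthetases there were 3, 3 and 2 higher and 9, 9 and 9 lower, the other integrated stress response genes 6, 6 and 6 higher and, with the filter, 15 and 15 lower, and the other ER genes 3, 3 and 2 higher and, with the filter, 20 and 19 lower. Lower tRNA synthetases numbered 3 under TMM factors, 8 under total-count scaling and 3 to 5 with each library left out.

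Deviations of same-numbered libraries from their group means correlated at -0.01, -0.06 and 0.03, and those of differently numbered libraries at -0.09 to 0.09. The replicate numbers thus showed no pairing, but this is a description. Whether same-numbered libraries were prepared together was not tested. With the replicate number as a block 12 members were higher and 7 lower, SESN2 (-0.27), GDF15 (-0.06), EIF4EBP1 (0.12) and CBS (0.18) no longer passing, and 3 tRNA synthetases were lower. With the block and the correction for GC content and length together 14 members were higher and 10 lower, and 2 tRNA synthetases were lower. Only 10 of these 14 and 8 of these 10 had the same call in DESeq2 as reported. The correction without the block also gave 14 higher and 10 lower, of which 10 and 8 had the same call as reported.

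Directions turned as follows, on the log2 scale. After correction for GC content and length, without and with the block, ATF6 was at 0.010 and 0.0086, CEBPG at 0.10 and 0.10, EIF4EBP1 at -0.077 and -0.078, HSP90B1 at 0.069 and 0.069, DNAJB9 at 0.063 and 0.062 and SDF2L1 at -0.14 and -0.14. In the TPM fits, in the order above, EIF4EBP1 was at -0.031, -0.032 and -0.031, PSPH at -0.031, -0.032 and -0.031, MTHFD2 at -0.049, -0.050 and -0.049, HSPA5 at -0.12, -0.12 and -0.12, SDF2L1 at -0.078, -0.079 and -0.078, and CHAC1, without the filter, at -0.014. Under total-count scaling HSPA5 was at -0.025 and PSPH at -3.49e-06, and under TMM factors PPP1R15A was at 0.0056. With 1 library left out ERN1 ranged from -0.11 to 0.039, CEBPG from -0.081 to 0.034 and PPP1R15A from -0.037 to 0.029. The cause was not tested. Depth limits CHAC1, at a mean of 11.1 normalized counts.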

Other observations

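DNAJB9, a co-chaperone induced through XBP1, had even counts in GFP (419, 380 and 453 normalized counts) and uneven TPM values there (3.84, 5.86 and 8.67), so the deposited scales differ for this gene within a single group. The methionyl-tRNA synthetase gene MARS1, which overlaps DDIT3 on the opposite strand, was higher by 0.15 on the log2 scale while DDIT3 was lower. SLC3A2, the partner subunit shared by the transporters SLC7A5 and SLC7A11, had 4092, 4054 and 3876 normalized counts in GFP and 5199, 5152 and 5091 in T-MGM (log2 0.36), and the other genes within 10 Mb of it had a median of 0.25. The sulfur-handling genes CTH and SLC7A11 were both lower, in different chromosomal regions, and neighbours of CTH had a median of -0.22. CBS was higher in DESeq2 as reported, a call that held in 8 of 17 alternatives. MARS1, SLC3A2 and this grouping were chosen after their values were seen.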
